A study of Mus musculus with 6 samples.

Results

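Messenger RNA of 9 genes was examined in the dorsal striatum of mice at postnatal day 21. The genes were a pair of synucleins (Sncb, Sncg) and 7 genes tied to familial Parkinson's disease or proposed for it (Park7, Pink1, Uchl1, Fbxo7, Atp13a2, Synj1, Vps13c). They were chosen by name among synucleins and Parkinson's genes other than Lrrk2 and Vps35, and make up 9 of the 23067 genes in the deposited expression table. All 9 averaged at least 1 FPKM, the level required for testing. FPKM counts reads per length of transcript and per size of library, so values may be compared between genes.

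The study set mice with the G2019S change in both copies of Lrrk2 against mice carrying wild-type Lrrk2 on both copies. This change lies in the kinase of a gene that itself causes familial Parkinson's disease. Each genotype had 3 samples and each sample 1 library, numbered here by the replicate numbers of the titles, which call all animals male and of postnatal day 21. The labels give no treatment, strain or pooling. Nor do they state that each sample is another animal, and the spread on which the p-values rest may therefore be technical in part.

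Synucleins are small proteins of nerve terminals that bind vesicle membranes. The other genes act along a few shared routes. Pink1 marks damaged mitochondria for removal, Park7 (DJ-1) guards against oxidative damage, Uchl1 and Fbxo7 act in the ubiquitin system, and Atp13a2, Synj1 and Vps13c act on lysosomes, synaptic vesicles and lipid transfer between membranes. Much of the interest in these genes concerns dopamine neurons, whose axons fill the striatum but whose cell bodies, and most of their RNA, lie in the midbrain.

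Pairs of libraries of 1 genotype had correlations across genes of 0.983 to 0.989, and pairs of different genotype 0.984 to 0.990. Striatal projection neuron markers were abundant in all 6 libraries, their 14 genes summing to 2909 to 3226 FPKM. Of 11 dopamine neuron markers, 7 were measured and 4 reached a mean of 1 FPKM. Those 4 were Aldh1a1 at 34.2 to 44.9 FPKM, Slc10a4 at 6.46 to 9.46 FPKM, Th at 3.17 to 4.235 FPKM, and Nr4a2. Nr4a2 did so only through knock-in libraries 1 and 2 (1.66 and 2.675 FPKM, against 0.351 to 0.931 FPKM elsewhere). Slc6a3, the dopamine transporter, stood at 0.0306 to 0.0880 FPKM. Which cells gave the RNA of these listed markers was not tested. Lrrk2 itself ranged from 10.9 to 12.4 FPKM over the 6 libraries, and since a point change need not alter the amount of transcript this level is no check of the labels. Libraries also stood apart from each other. Xist, the RNA of the inactive X chromosome, was at 27.2 to 39.3 FPKM in all 6 libraries, although all are titled male. The Y-linked genes Ddx3y, Kdm5d, Eif2s3y and Uty had no entry under those names, so this check of sex rests on Xist alone. The cortical glutamate transporter Slc17a7 was highest in knock-in libraries 1 and 2 (29.9 and 25.2 FPKM), intermediate in wild-type library 1 (10.95 FPKM) and lowest elsewhere (2.73 to 3.55 FPKM). Knock-in library 3 had the highest share of mitochondrial RNA, 23.2% of summed FPKM against 18.0% to 20.5%. In that library myelinating oligodendrocyte markers lay 0.44 below the wild-type mean (median of 10 genes, log2 scale) and red blood cell markers 0.82 below it. Of all the marker lists compared, 3 had medians below every wild-type library in all 3 knock-in libraries. These 3 were picked out for that pattern, and 9.51% of single genes tested had groups that did not overlap. Ependyma and choroid plexus markers were at -0.59, -0.21 and -0.57 in knock-in libraries 1 to 3, against -0.05 to 0.05 in wild type. Neuroblast and dividing cell markers were at -0.27, -0.10 and -0.26, against -0.06 to 0.10. Oligodendrocyte precursor markers were at -0.05, -0.07 and -0.42, against -0.03 to 0.07. In bulk tissue, fewer cells of a type and less RNA per cell cannot be told apart.

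The 9 genes spanned a wide range of levels. Uchl1 was at 157 to 213 FPKM, above at least 99.2% of the genes in the table in every library. Pink1 followed at 96.6 to 116 FPKM and Sncb at 43.0 to 64.3 FPKM, and the order Uchl1, Pink1, Sncb held in 6 of 6 libraries. Park7 and Atp13a2 came next. Park7 was above Atp13a2 in 5 of 6 libraries, with ratios from 0.954 to 1.35, and their ranges of 20.0 to 28.6 and 18.1 to 23.0 FPKM overlapped. Synj1 and Fbxo7 were also in reverse order in 1 library. Vps13c and Sncg had the lowest levels, both near the middle of the table, at percentiles of 53.6 to 56.8 and 49.9 to 58.3 of all genes in a library. Vps13c was above Sncg in 4 of 6 libraries, and the ratio between them ran from 0.828 to 1.49.

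**Figure D1:**
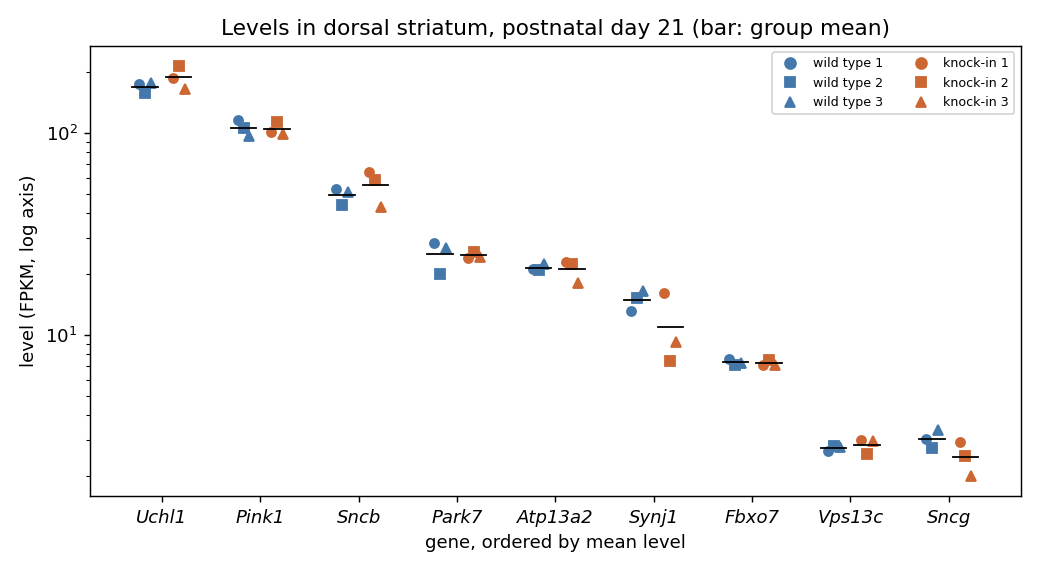
Level of each of the 9 genes in FPKM (log axis) in each library, with wild-type libraries in blue, knock-in libraries in orange and the group mean as a bar. Points of the groups overlap for all 9 genes, and Synj1 shows the widest scatter, from 7.41 to 16.4 FPKM.

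The comparison of genotypes asked whether the kinase change in Lrrk2 goes with altered RNA levels of these genes. None of the 9 was called, at an adjusted p under 0.05 in limma with Benjamini-Hochberg adjustment over 14156 genes, and each had an adjusted p of 0.9975. The share called among all genes tested was 0.0212%. At an unadjusted p under 0.05 the count was also 0 of 9, where 4.27% of all genes passed. The groups did not separate for any of the 9, while 9.51% of all genes tested had knock-in and wild-type libraries that did not overlap. By their means 3 were higher and 6 lower in knock-in, and 56.4% of all genes were lower. The median log2 difference of the 9 genes was -0.016 and that of all genes -0.014.

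**Figure D2:**
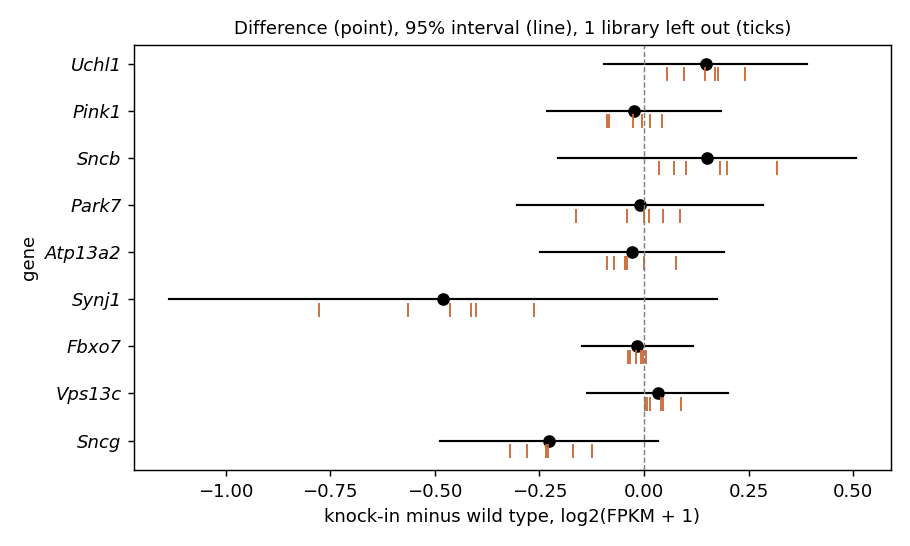
Knock-in minus wild-type difference on the log2(FPKM + 1) scale for each gene, with its 95% interval from limma (line) and the values after leaving out each library in turn (orange ticks). All 9 intervals include 0, the narrowest being that of Fbxo7 and the widest that of Synj1.

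The synucleins are taken first. Sncb, which encodes beta-synuclein, was at 52.5, 43.8 and 51.2 FPKM in wild-type libraries 1 to 3 and at 64.3, 58.6 and 43.0 FPKM in knock-in libraries 1 to 3. The highest levels were those of knock-in libraries 1 and 2, and the lowest that of knock-in library 3, below every wild-type library. Group means were 49.2 ± 4.69 and 55.3 ± 10.99 FPKM (SD, n = 3 each). On the log2 scale Sncb differed by 0.15 (SE 0.15), and the 95% interval put the fold between 0.868 and 1.42. The 2 libraries with the highest Sncb were also those with the highest cortical marker levels. There the median of 7 cortical excitatory neuron markers lay 0.24 and 0.21 above the wild-type mean, against -0.08 to 0.07 in the other libraries. Of 12 such markers, 5 had a mean under 1 FPKM. The summed level of the list ranged from 868 to 971 FPKM over wild-type libraries and from 881 to 1110 FPKM over knock-in libraries. Most of it came from Nrgn, which the striatum also expresses. Among the 7 tested, Neurod2 and Neurod6 reached a mean of 1 FPKM only through knock-in libraries 1 and 2. Neurod2 was at 2.31 and 2.06 FPKM there and at most 1.105 FPKM elsewhere. Neurod6 was at 3.34 and 3.095 FPKM, and at most 0.839 FPKM elsewhere. The median and the covariate thus rest in part on markers selected through those 2 libraries. With the mean z score of these 7 markers in the fit as a covariate, from -0.83 in knock-in library 3 to 1.18 in knock-in library 1, the Sncb difference turned to -0.06 (adjusted p = 0.897 in limma). Without knock-in library 3 it was 0.32, without knock-in library 1 it was 0.03, and without wild-type library 2 it was 0.07. The part of the cortical markers in the Sncb level was not tested.

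Sncg, which encodes gamma-synuclein, was at 3.04, 2.77 and 3.38 FPKM in wild-type libraries 1 to 3 and at 2.95, 2.50 and 2.01 FPKM in knock-in libraries 1 to 3. Knock-in libraries 2 and 3 lay below all wild-type libraries, and knock-in library 1 lay within their range. Means were 3.06 ± 0.306 and 2.49 ± 0.473 FPKM (SD, n = 3 each), a ratio of 0.812. The log2 difference was -0.23 (SE 0.11), the fold interval ran from 0.714 to 1.02, and the unadjusted p of 0.0797 was the lowest of the 9 genes, at rank 967 among the genes tested. Without knock-in library 3, which had the lowest value, the difference was -0.12. With the cortical covariate it was -0.34 (adjusted p = 0.372), and at a pseudocount of 0.1 FPKM it was -0.30.

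Beta- and gamma-synuclein are related proteins, yet their RNAs differed by more than an order of magnitude. Sncb exceeded Sncg by 15.2-fold to 17.3-fold in wild-type libraries and by 21.5-fold to 23.5-fold in knock-in libraries. Expressed the other way, Sncg was 5.79%, 6.31% and 6.59% of Sncb in wild-type libraries 1 to 3 and 4.59%, 4.27% and 4.66% in knock-in libraries 1 to 3. These shares did not overlap between genotypes and do not move with the scaling of a library. The log2 ratio was -4.01 ± 0.10 in wild type and -4.47 ± 0.07 in knock-in (SD, n = 3 each). The difference of -0.47 had a two-sided exact permutation p of 0.1, which is the smallest that 3 against 3 libraries can give, so it could not pass a threshold of 0.05. Without 1 library at a time the difference ran from -0.52 to -0.42. In knock-in library 3, where Slc17a7 was at 3.41 FPKM, the share was 4.66%, against 4.59% and 4.27% in the knock-in libraries with high Slc17a7. Medians of the ependymal, neuroblast and oligodendrocyte precursor lists separate the same libraries, as given above. The part of these or of the cortical markers in the ratio was not tested.

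**Figure D3:**
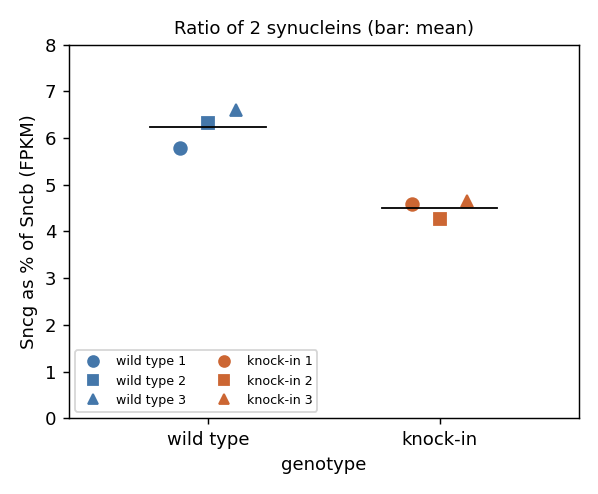
Sncg as a percentage of Sncb (FPKM over FPKM) in each library, with the mean of each genotype as a bar. Knock-in libraries lie at 4.27% to 4.66%, below the 5.79% to 6.59% of wild-type libraries.

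To place that ratio, the ratios of all 36 pairs of the 9 genes were compared in the same way, a step chosen after the data were seen. Groups did not overlap in 4 of 36 pairs (11.1%), near the 9.51% of single genes tested. The share over pairs of other genes was not computed. In each of the 4 pairs Sncg was lower relative to its partner in knock-in. The partners were Sncb, Uchl1, Atp13a2 and Vps13c, and the 4 ratios share the Sncg values. All 4 had an exact permutation p of 0.1, adjusted to 0.554 over the 36 pairs, so none passed.

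Sncb lies on chromosome 13 at 54758860 to 54766595 and Sncg on chromosome 14 at 34370274 to 34374789, both on the minus strand (GENCODE release M21, GRCm38). Sncg has 1 annotated transcript and Sncb 4, and neither shares exon bases with another gene. The bases before their start sites are shown because this pair of related genes differed widely in level. Both are from RefSeq on GRCm38.p6, minus strand, written 5′ to 3′, with each CG pair in capitals, and both end before the start sites of RefSeq and of GENCODE.
Sncb, chr13:54766596-54766845: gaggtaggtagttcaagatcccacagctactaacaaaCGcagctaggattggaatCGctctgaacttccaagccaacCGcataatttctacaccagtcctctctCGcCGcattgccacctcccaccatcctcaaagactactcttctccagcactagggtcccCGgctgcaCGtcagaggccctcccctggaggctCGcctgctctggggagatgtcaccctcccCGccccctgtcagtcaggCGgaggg
Sncg, chr14:34374790-34374919: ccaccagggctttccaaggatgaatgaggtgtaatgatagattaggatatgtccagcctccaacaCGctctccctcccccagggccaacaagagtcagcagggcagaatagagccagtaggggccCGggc

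In the 250 bases before the RefSeq start, Sncb held 10 CG pairs and Sncg 7, against a median of 6 over 32851 promoters. The Sncg window printed above is cut to 130 bases, since its GENCODE start lies farther upstream, and holds 2 of them. A GC box (GGGCGG, either strand) was found in both 250-base windows and in 32.7% of all promoters. The Sncg match does not lie wholly within the 130 bases printed. A CCAAT box (CCAAT, either strand) was found in the Sncb window alone of the pair and in 33.8% of all promoters. The core of the cyclic AMP response element (TGACG, either strand) also matched once in the Sncb window, as it did at least once in 17.8% of all promoters. Of the 9 genes 8 matched a RefSeq promoter, with 10 windows in all, and 0 of these windows held a TATA box (TATAAA, either strand), present in 12.4% of all promoters. These matches describe the letters only.

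Among genes of mitochondrial quality control and oxidative defence, Pink1 encodes the kinase that accumulates on damaged mitochondria and phosphorylates ubiquitin there. It was at 116, 106 and 96.6 FPKM in wild-type libraries 1 to 3 and at 101, 113 and 98.4 FPKM in knock-in libraries 1 to 3. All 3 knock-in values fell inside the wild-type range. Pink1 differed by -0.02 on the log2 scale (SE 0.09), with a fold interval from 0.851 to 1.14. Pink1 lies on chromosome 4 at 138313409 to 138326307, minus strand.

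Annotated exons of Pink1 share bases with the microRNA gene Mir7019 and with the predicted microRNA Gm27646, both on the same strand. Reads at those bases could be counted for Pink1 or for the microRNA gene. The mature forms of Mir7019 are therefore given, from RefSeq on GRCm38.p6, 5′ to 3′, with the seed (bases 2 to 8) in capitals.
mmu-miR-7019-5p, chr4:138316173-138316195: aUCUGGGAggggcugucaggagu
mmu-miR-7019-3p, chr4:138316132-138316154: uCACCUUGgccgccucucugcag
Mir7019 shares 2.58% of the exon bases of Pink1 and Gm27646 4.12%. Mir7019 was listed at 0.117 to 0.154 FPKM and Gm27646 at 0.0973 to 0.116 FPKM.

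Park7 encodes DJ-1, a protein that responds to oxidative damage. Its levels were 28.6, 20.0 and 27.0 FPKM in wild-type libraries 1 to 3 and 24.0, 25.8 and 24.4 FPKM in knock-in libraries 1 to 3. The spread lay in wild type, where replicate 2 was the lowest of all 6 libraries and replicate 1 the highest. Accordingly the coefficient of variation was 18.1% in wild type and 3.88% in knock-in, with n = 3 each, a difference in spread that was not tested. Wild-type library 2 is also the library in which Ttr, a choroid plexus gene, stood at 374 FPKM against 2.12 to 16.2 FPKM elsewhere, and its part in the Park7 level was not tested. Between genotypes Park7 differed by -0.01 on the log2 scale (SE 0.13, fold interval 0.810 to 1.22). The sign changed with single libraries left out, between -0.16 and 0.09. Park7 lies on chromosome 4 at 150897133 to 150914437, minus strand, with 10 transcripts.

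Other genes of these routes were compared by list. Of 33 genes of mitophagy and mitochondrial quality control tested, 18 were higher and 15 lower, 0 were called, and the median log2 difference was 0.0057, against -0.014 over all genes. Bnip3l, a mitophagy receptor that works beside the Pink1 route, had the smallest p, at 17.9, 17.2 and 19.4 FPKM in wild type and 20.3, 21.0 and 21.9 FPKM in knock-in (log2 difference 0.20, unadjusted p = 0.0154 and adjusted p = 0.9975 in limma). Its groups did not overlap, which held for 1 of the 33 genes and for 9.51% of all genes. Parl, the protease that cleaves Pink1, came second, at 4.69 ± 0.256 and 4.30 ± 0.245 FPKM (SD, n = 3 each).

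The list of peroxide, glutathione and glyoxal defence held 25 genes, 11 higher and 14 lower, with 0 called and a median of -0.0058. Keap1, the brake on the antioxidant factor Nfe2l2, had levels of 9.96, 9.71 and 10.7 FPKM in wild type and 8.30, 9.45 and 7.33 FPKM in knock-in (log2 difference -0.25, unadjusted p = 0.0244 and adjusted p = 0.9975 in limma). Its groups did not overlap, which held for 1 of the 25 genes and for 9.51% of all genes. An unadjusted p under 0.05 was reached by 4.27% of all genes. Catalase (Cat) stood at 20.6 ± 1.56 and 18.7 ± 0.966 FPKM (SD, n = 3 each).

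Uchl1, a ubiquitin hydrolase abundant in neurons, had the highest level of the 9 genes. It was at 174, 157 and 176 FPKM in wild-type libraries 1 to 3 and at 188, 213 and 164 FPKM in knock-in libraries 1 to 3. Knock-in libraries 1 and 2 lay above all wild-type libraries and knock-in library 3 within their range. Sncb and the cortical markers were also highest in knock-in libraries 1 and 2. Means were 169 ± 10.4 and 188 ± 24.5 FPKM (SD, n = 3 each), with a log2 difference of 0.15 (SE 0.10) and a fold interval from 0.936 to 1.31. The difference was 0.04 with the cortical covariate, 0.09 with quantile normalization and 0.05 without knock-in library 2. It was 0.10 without wild-type library 2 and 0.24 without knock-in library 3. As given for Sncb, the covariate rests in part on markers selected through knock-in libraries 1 and 2. The part of the cortical markers in the Uchl1 level was not tested. Uchl1 lies on chromosome 5 at 66676091 to 66687234, plus strand. The antisense gene Uchl1os covers 18.1% of its exon bases and was at 0.883 to 1.26 FPKM. Its relatives Uchl3 and Uchl5 were at 24.3 to 28.2 and 4.50 to 5.61 FPKM.

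Fbxo7 encodes an F-box protein, the substrate-binding part of an SCF ubiquitin ligase. Its level was the steadiest of the 9 genes. It was at 7.55, 7.10 and 7.27 FPKM in wild-type libraries 1 to 3 and at 7.05, 7.48 and 7.12 FPKM in knock-in libraries 1 to 3. The highest library was 1.07 times the lowest. Its within-group SD on the log2 scale, 0.04, was larger than that of only 5.92% of 5928 tested genes with a mean from 0.5 to 2 times its own. The log2 difference was -0.016 (SE 0.06), with the narrowest fold interval of the 9, from 0.902 to 1.08. Fbxo7 lies on chromosome 10 at 86021972 to 86051873, plus strand, and A230060F14Rik on the other strand covers 5.08% of its exon bases, at 0.189 to 0.363 FPKM.

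The list of ubiquitin hydrolases, SCF subunits and proteasome regulators had 18 genes tested, 12 higher and 6 lower, with 0 called and a median of 0.02. Fbxw7, another F-box protein, stood at 12.8 ± 0.415 and 14.0 ± 0.757 FPKM, and Usp14, a hydrolase of the proteasome, at 9.88 ± 0.483 and 11.1 ± 1.22 FPKM (SD, n = 3 each). Groups did not overlap for 2 of the 18 genes, Fbxw7 and Fbxl5, near the 9.51% of all genes, and neither passed an unadjusted p of 0.05. Psmf1, whose protein PI31 binds Fbxo7, ranged from 3.64 to 4.55 FPKM in the wild-type libraries and from 3.05 to 4.15 FPKM in the others.

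Atp13a2 encodes a lysosomal transport ATPase that exports polyamines. It was at 21.2, 21.0 and 22.4 FPKM in wild-type libraries 1 to 3 and at 23.0, 22.4 and 18.1 FPKM in knock-in libraries 1 to 3. Knock-in library 3 was the lowest library and knock-in library 1 the highest. The log2 difference was -0.03 (SE 0.09), the fold interval 0.842 to 1.14. Without knock-in library 3 the difference was 0.08. The related ATPase genes were measured at lower levels, Atp13a1 at 13.4 to 15.1 FPKM, Atp13a3 at 3.86 to 5.20 FPKM, Atp13a5 at 3.24 to 3.94 FPKM and Atp13a4 at 1.19 to 1.70 FPKM. Atp13a2 lies on chromosome 4 at 140986873 to 141007330, plus strand, and shares no exon bases with another gene.

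Of 16 genes in the list of these ATPases and lysosomal partners, 8 were higher and 8 lower, 0 were called and the median was 0.0020. Scarb2, the receptor that carries glucocerebrosidase to lysosomes, stood at 19.9 ± 0.560 and 18.6 ± 0.878 FPKM, and the lysosomal membrane gene Lamp1 at 155 ± 2.74 and 145 ± 11.7 FPKM (SD, n = 3 each). A list of 17 further Parkinson-linked genes, which shares some members with the other lists, had 9 higher and 8 lower, 0 called and a median of 0.015. Besides Scarb2, its smallest p was that of Gigyf2, at 2.62, 4.14 and 4.04 FPKM in wild type and 2.78, 2.93 and 3.06 FPKM in knock-in.

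Synj1 varied most. It encodes synaptojanin, a lipid phosphatase that acts in the uncoating of recycled synaptic vesicles. It was at 13.1, 15.2 and 16.4 FPKM in wild-type libraries 1 to 3 and at 16.1, 7.41 and 9.19 FPKM in knock-in libraries 1 to 3. Knock-in libraries 2 and 3 were the lowest libraries, both below every wild-type library, while knock-in library 1 lay within the wild-type range. The highest library was 2.21 times the lowest, and the within-group SD of 0.39 on the log2 scale exceeded that of 97.6% of 4873 tested genes of like level. Means were 14.9 ± 1.65 and 10.9 ± 4.61 FPKM (SD, n = 3 each), a ratio of 0.731. The log2 difference of -0.48 (SE 0.27) was not called, with an unadjusted p of 0.122 and a fold interval from 0.455 to 1.13 in limma. Without knock-in library 1 the difference was -0.78 (adjusted p = 0.316 in limma), and without knock-in library 2 it was -0.26 (adjusted p = 0.893). Knock-in libraries 2 and 3 also had the fewest genes at 1 FPKM or more, 14045 and 13999, against 14161 to 14191 elsewhere. The part of that difference in the Synj1 level was not tested. The marker lists named next differed between the 2 libraries with low Synj1. Relative to the wild-type mean, cortical markers were at 0.21 in knock-in library 2 and -0.06 in knock-in library 3, myelinating oligodendrocyte markers at -0.09 and -0.44, and red blood cell markers at 0.10 and -0.82. With the cortical covariate the Synj1 difference was -0.59 (adjusted p = 0.609 in limma), and the part of the other lists in the Synj1 level was not tested.

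**Figure D4:**
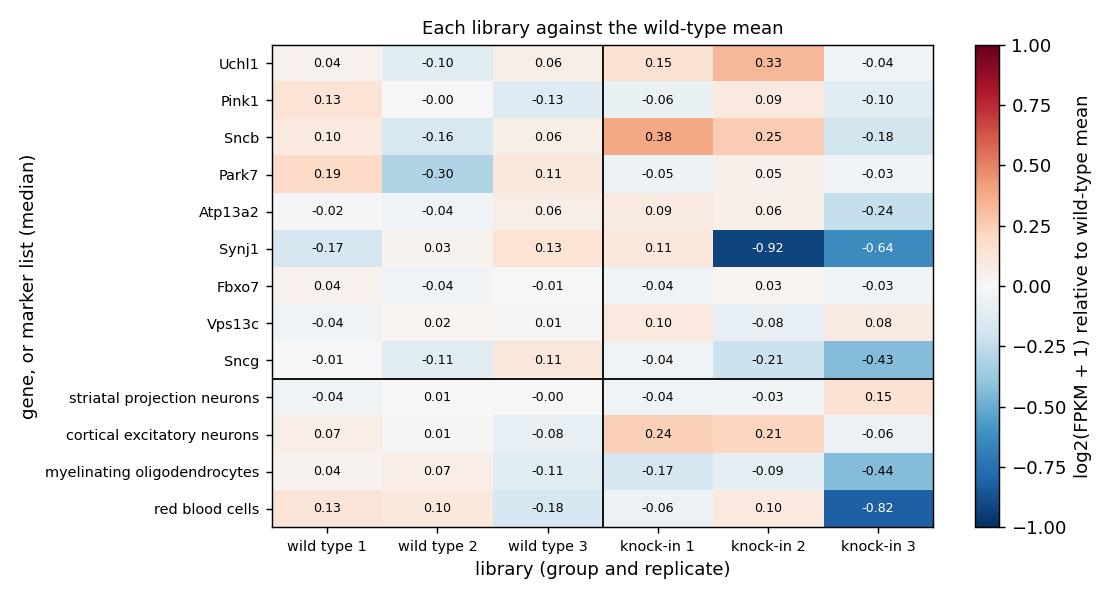
Level of each gene (upper rows) and median of 4 marker lists (lower rows) in each library relative to the wild-type mean, on the log2(FPKM + 1) scale, with red above and blue below. Synj1 stands at -0.92 and -0.64 in knock-in libraries 2 and 3, while Sncb and the cortical excitatory neuron markers lie above the wild-type mean in knock-in libraries 1 and 2.

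Synj1 lies on chromosome 16 at 90936092 to 91011308, minus strand. Its 12 annotated transcripts include 8 coding ones of 547 to 7090 bases. The deposited table gives 1 value per gene, so which transcripts carry the difference between libraries was not analysed here. Among 7219 genes averaging at least 5 FPKM, Rubcn and Setd6 had the profiles closest to Synj1 over the 6 libraries, with root mean square differences of 0.16 each on the log2 scale. Rubcn, a regulator of autophagy, was at 10.4 to 11.2 FPKM in 4 libraries and at 6.36 and 5.77 FPKM in knock-in libraries 2 and 3. Setd6, a methyltransferase gene, was at 3.38 and 3.34 FPKM in those 2 libraries and at 5.80 to 6.63 FPKM in the others. For Sncb the closest profiles were those of Slc6a7, a proline transporter, and Gabra3, a GABA-A receptor subunit, each at 0.04. For Sncg they were those of Dusp1 (0.06) and Upf2 (0.07).

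The list of clathrin uncoating and synaptic endocytosis held 26 genes tested, 14 higher and 12 lower, with 0 called and a median of 0.015. Ap2s1, the small subunit of the clathrin adaptor AP-2, had the smallest p of the list. It was at 41.5, 37.2 and 37.1 FPKM in wild-type libraries 1 to 3 and at 51.8, 61.1 and 44.9 FPKM in knock-in libraries 1 to 3, without overlap (log2 difference 0.43, unadjusted p = 0.00602 and adjusted p = 0.9975 in limma). Groups did not overlap for 3 of the 26 genes, Ap2s1 and Sacm1l higher and Dnm2 lower in knock-in, against 9.51% of all genes. The endophilin gene Sh3gl3 had the second smallest p, at 17.6 ± 1.08 and 15.3 ± 1.30 FPKM (SD, n = 3 each). Synj2, the other synaptojanin, was at 2.83, 3.05 and 3.13 FPKM in wild type and 3.00, 2.18 and 2.10 FPKM in knock-in, low in the same 2 knock-in libraries as Synj1. Dnajc6 (auxilin), a partner of synaptojanin in uncoating and itself a Parkinson's gene, stayed between 21.6 and 24.3 FPKM.

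Vps13c encodes a bridge that moves lipids between the endoplasmic reticulum and late endosomes or lysosomes. It was at 2.66, 2.82 and 2.79 FPKM in wild-type libraries 1 to 3 and at 3.02, 2.56 and 2.98 FPKM in knock-in libraries 1 to 3. The knock-in values lay on both sides of the wild-type range. Vps13c differed by 0.03 on the log2 scale (SE 0.07, fold interval 0.910 to 1.15), and by 0.0016 to 0.089 without 1 library at a time. Vps13c lies on chromosome 9 at 67840396 to 67995638, plus strand, and its exons cover 16299 bases, the most of the 9 genes. The other family members were at like levels, Vps13a at 1.91 to 2.56 FPKM, Vps13b at 3.00 to 3.69 FPKM and Vps13d at 2.61 to 3.13 FPKM. Of 11 genes for VPS13 and other lipid-bridge proteins, 3 were higher and 8 lower, 0 were called, and the median was -0.04. Uhrf1bp1 had the smallest p, at 3.24 ± 0.127 and 2.86 ± 0.220 FPKM (SD, n = 3 each). Groups did not overlap for 2 of the 11, Atg2b and Uhrf1bp1, where 9.51% of all genes did not.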

How the data were processed

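RNA from 6 dorsal striatum samples (3 per genotype) was extracted with a miRNeasy kit and sequenced from TruSeq libraries, per the labels' protocols. The deposited table holds 1 FPKM value per gene and library, made by the authors, per the file headers. Per the submitters' processing notes, the tools were StringTie, HISAT2, SAMtools and FastQC, without role or version. The genome build, annotation, strand setting and read depth were not given in the sources used here, and the precision was taken from the spread between libraries. Columns were assigned by the sample codes in the labels.

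Tests used log2(FPKM + 1), a scale on which changes of low genes are understated. Genes averaging at least 1 FPKM (14156) entered limma 3.58.1, run in R 4.3.3 (trend, robust, two-sided, Benjamini-Hochberg, adjusted p under 0.05). The script was tested on simulated data. Fold intervals are 95% intervals on that scale. Ratios were compared by exact permutation. The genes and lists were chosen with earlier results of these data known. Of each list the 2 genes with the smallest p are named, and for the 3 genes with the largest SD over libraries the 2 closest profiles, without predicted genes. Psmf1, Dnajc6, Synj2, Fbxl5, Sacm1l, Dnm2, Atg2b, Nrgn, Ttr, Slc17a7 and the paralogues of Uchl1, Atp13a2 and Vps13c were added beyond that rule, with their values known. Deviations of same-numbered libraries from their group means correlated over genes at -0.011, -0.074 and 0.19, so the numbers were not taken as pairs.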

Additional observations from a re-analysis of the deposited data

How the results depend on the processing

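None of the 9 genes was called in any of 15 alternatives (pseudocount, filters, scalings, plain limma, cortical covariate, replicate block, and each library left out), and no gene of the 7 lists was called either. Calls were rare in every fit, from 2 of 7792 genes tested at a minimum mean of 5 FPKM to 15 of 14178 without knock-in library 2. With so few calls among all genes, a count of 0 of 9 says little about these genes. Sncg and Vps13c were not tested at a minimum mean of 5 FPKM. Of 133 refitted differences, 120 kept their sign and 13 changed it, all of them uncalled. The filters, plain limma and the balanced replicate block cannot alter a difference, so the signs kept there were fixed in advance. With median-of-ratios scaling Park7 was at 0.0097 and Fbxo7 at 0.0019, with quantile normalization Fbxo7 was at 0.00030, and with the cortical covariate Sncb was at -0.056 and Park7 at 0.0025. Leaving out 1 library at a time gave ranges of -0.16 to 0.086 for Park7, -0.089 to 0.042 for Pink1, -0.039 to 0.0053 for Fbxo7 and -0.089 to 0.076 for Atp13a2. With a replicate block, 0 of the 9 genes were called, and 2 of all 14156 genes tested. The differences, such as -0.48 for Synj1, were unchanged in size, as a balanced block requires. The block left the Sncg to Sncb difference at -0.47, with an exact sign-flip p of 0.25, the smallest that 3 pairs allow. The causes of these shifts were not tested. With unknown read depth, counting error at the low levels of Sncg and Vps13c could not be given.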
